A study of Nothobranchius furzeri with 24 samples.

Results

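Whole brains of wild female turquoise killifish (Nothobranchius furzeri) caught at 108 days post-hatching (dph) were compared with brains of females caught at 73 dph. The members were chosen by the age and sex in the sample labels, which gave 8 of the 24 sequenced brains, 4 at 108 dph and 4 at 73 dph, and they were described across all expressed genes. All fish belonged to the wild strain MZM_A41, none was treated, and the other 16 brains were 4 females of 39 dph and 12 males of 39, 73 and 108 dph. The ages are estimates. In such a wild cohort age advances with the catch date, so that age, catch date and season cannot be told apart. The turquoise killifish is an annual fish of temporary African pools, in which growth, reproduction and ageing are pressed into one rainy season. Its brain keeps dividing radial glia and growing neurons in adult life, and the fall of this neurogenesis, of protein quality control and of energy metabolism is much studied as part of brain ageing.

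The RNA of each brain was sequenced and reads were counted per gene over 26739 gene models. The libraries held 14422009 to 18507236 counted reads at 108 dph and 17169450 to 18226850 at 73 dph, and the shallowest of the series, a 39 dph female, held 4595506. Levels are given as CPM, read counts scaled to a common library size with TMM factors over the 12 females. Differences are log2 fold changes of 108 over 73 dph with their standard error (SE) from edgeR. Nervous tissue markers were abundant at both ages. The summed level of the 9 neuronal markers with a name (of 10 fixed) was 4539 to 4772 CPM at 108 dph and 4696 to 4939 CPM at 73 dph. Oligodendrocyte markers (6 of 9 named) summed to 5275 to 7924 CPM at 108 dph and 6134 to 8814 CPM at 73 dph. For radial glia and astroglia (6 of 9 named) the sums were 4999 to 6274 CPM at 108 dph and 5400 to 7094 CPM at 73 dph. A pituitary hormone locus (fish symbol PRL, prolactin; human name GH1) stood apart from this. It had 2.12, 4142, 3.05 and 42.4 CPM in the 108 dph females and 2867, 4289.6, 22.1 and 36.5 CPM in the 73 dph females, so that 3 of the 8 libraries held much of this hormone RNA, in both groups, and its part in the results was not tested beyond leaving these fish out. The first principal component of the 8 brains took 23.1% of the variance and did not separate the ages (2.002 ± 38.3 at 108 dph and -2.002 ± 21.3 at 73 dph, SD, n = 4 each; exact permutation test, two-sided p = 0.914, smallest possible 0.0286). On the second component, with 18.9% of the variance, the ages lay farther apart, at 17.1 ± 11.99 for 108 dph and -17.1 ± 25.5 for 73 dph with some overlap (SD, n = 4 each; exact permutation test, two-sided p = 0.0571).

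Between the brains of 108 and 73 dph females a small set of transcripts was called different. A gene not called need not be unchanged, since 3042 genes tested (16.2%) had an unadjusted edgeR p below 0.05. Of 18824 genes tested, 134 were called at an edgeR adjusted p below 0.05, or 0.712% of all genes tested, with 55 higher (0.292%) and 79 lower (0.42%) at 108 dph. Most of the differences were moderate, the median of their absolute log2 values being 0.60, or 1.51-fold. Only 15 of the called genes were more than 2-fold higher and 6 more than 2-fold lower. In all 134 the 4 brains of 108 dph lay wholly above or wholly below the 4 brains of 73 dph, a separation that 9.55% of all genes tested showed. The number of calls fell with any 1 of the 8 fish left out, a fit that also has fewer fish. Without 73 dph replicate 4 it was 6, without 108 dph replicates 3 and 2 it was 21 and 28, and without 73 dph replicates 2, 3 and 1 it was 43, 55 and 65. Without the 3 females of 73 and 108 dph rich in prolactin RNA 2 genes were called, 1 of them among the 134. This fit lacked 108 dph replicate 2 and 73 dph replicates 1 and 2, so its groups were smaller. It kept a 39 dph female with 3907 CPM of prolactin RNA. The effect of prolactin and that of fewer fish were not tested apart. In each of these fits all 134 genes kept their direction, which groups without overlap nearly fix in advance, so this adds no support. Of the 134, 19 were called in none of the 8 fits that left out 1 fish. Among these were XPO1, MASTL, SOX11, KMT2C and PCDH18. DESeq2 on the same 12 females called 914 genes (4.86%), among them 132 of the 134.

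**Figure D1:**
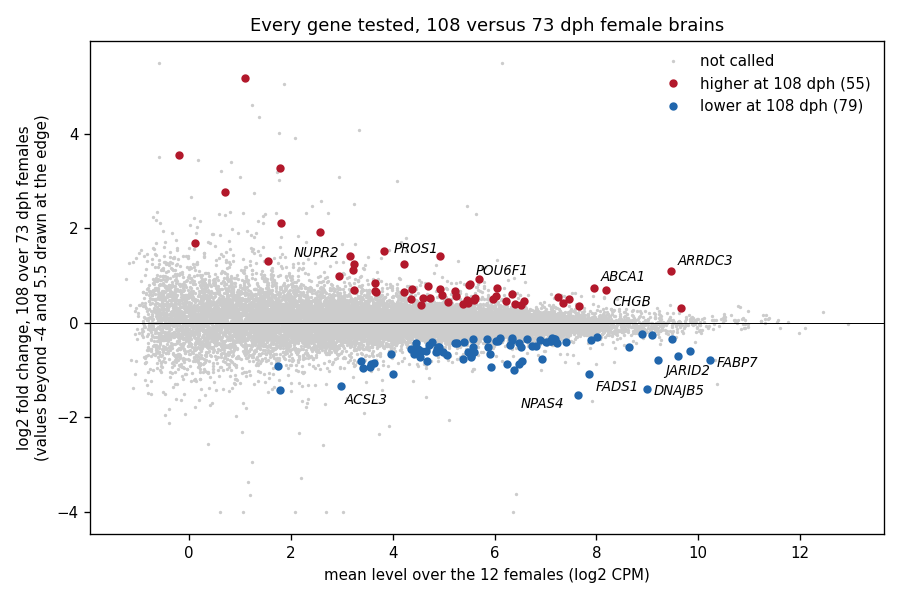
Log2 fold change of 108 over 73 dph females (y axis) against the mean level over the 12 females (x axis, log2 CPM) for each of the 18824 genes tested. Red points are the 55 genes called higher and blue points the 79 genes called lower at 108 dph. The abundant called genes differ mostly by less than 1 log2 unit, and the largest rises lie among genes of low level. Values beyond the axis are drawn at its edge.

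POU6F1, a POU-domain transcription factor of the brain, had the smallest p of all. It measured 65.9, 72.5, 66.0 and 58.9 CPM at 108 dph, against 37.1, 39.5, 38.8 and 35.7 CPM at 73 dph. The lowest 108 dph brain was well above the highest 73 dph brain, and POU6F1 rose by a log2 fold change of 0.80 (SE 0.07, edgeR adjusted p = 0.00105). FBXO33, the substrate-binding part of a ubiquitin ligase, had 199, 176, 193 and 183 CPM at 108 dph and 132, 131, 131 and 124 CPM at 73 dph, a log2 fold change of 0.54 (SE 0.06, edgeR adjusted p = 0.00163). Both genes kept their call when any of the 8 fish was left out. ARRDC3, an arrestin-like adaptor in receptor trafficking, was the most abundant gene that rose more than 2-fold, with 1609, 1221, 1165 and 978 CPM at 108 dph against 480.1, 655, 652 and 551 CPM at 73 dph (log2 fold change 1.09, SE 0.14, edgeR adjusted p = 0.0119). PROS1, which encodes the anticoagulant protein S, had 42.6, 21.4, 29.5 and 24.3 CPM at 108 dph and 10.4, 13.8, 12.1 and 13.7 CPM at 73 dph (log2 fold change 1.24, SE 0.19, edgeR adjusted p = 0.0195). In ARRDC3, PROS1 and the stress-response gene NUPR2 (fish symbol NUPR1; 24.8, 13.5, 16.3 and 10.8 CPM at 108 dph, 6.003, 8.06, 8.39 and 4.93 CPM at 73 dph) replicate 1 was the highest of the 108 dph brains. Over the 55 genes called higher, replicate 1 was the highest 108 dph brain in 15 and replicate 4 in 18.

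Other large rises followed. CHGB, a protein of secretory granules, had 393, 326, 439 and 420.1 CPM at 108 dph and 226, 287, 226 and 229.8 CPM at 73 dph, a difference of 0.70 on the log2 scale (SE 0.11, edgeR adjusted p = 0.0195). The brain richest in prolactin RNA in each group, replicate 2 at both ages, was the lowest for CHGB at 108 dph and the highest at 73 dph. A link between CHGB and prolactin was not tested. ABCA1, the exporter of cellular cholesterol, reached 440.0, 355, 367 and 274 CPM at 108 dph, against 185, 244, 206 and 227 CPM at 73 dph (log2 fold change 0.74, SE 0.13, edgeR adjusted p = 0.0279). KCNQ5, a potassium channel of the M-current, had 11.8, 19.1, 17.0 and 19.1 CPM at 108 dph and 9.52, 10.2, 8.33 and 9.40 CPM at 73 dph (log2 fold change 0.84). A further KCNQ5 locus (KCNQ5A) had a log2 fold change of 0.31 and was not called (edgeR adjusted p = 0.259). PQLC2, a lysosomal exporter of cationic amino acids, CFAP43, a protein of motile cilia, and XPO1, the main nuclear export receptor, rose by 0.73, 0.99 and 0.81 on the log2 scale. XPO1 (SE 0.17, edgeR adjusted p = 0.0488) lost its call whichever of the 8 fish was left out. The loci named KIAA1462 (fish symbol SVILB) and CORO1C (fish symbol CORO1B) rose by 0.79 and 0.46, while other loci with these human names were not called. JAK2, the cytokine receptor kinase, and EPG5, which tethers autophagosomes to lysosomes, rose by 0.59 and 0.46.

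Of the 15 genes that rose more than 2-fold, 11 had no name. In 8 of these 11 the lowest 108 dph brain was replicate 1, the brain in which ARRDC3 was highest. How often replicate 1 was lowest over all genes was not counted. The unnamed gene Nfu_g_1_003134 shows this order, with 24.8, 55.9, 51.2 and 61.9 CPM at 108 dph against 21.9, 11.3, 23.4 and 16.3 CPM at 73 dph (log2 fold change 1.41, SE 0.27, edgeR adjusted p = 0.0375). Nfu_g_1_022113 had 1.76, 10.9, 7.41 and 11.4 CPM at 108 dph and 1.10, 0.334, 1.14 and 0.672 CPM at 73 dph. These 2 were singled out after their values were seen. By the smallest p, Nfu_g_1_006151 was the leading unnamed rise, with 49.3, 52.4, 44.3 and 51.7 CPM at 108 dph and 31.4, 34.0, 30.4 and 27.9 CPM at 73 dph.

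**Figure D2:**
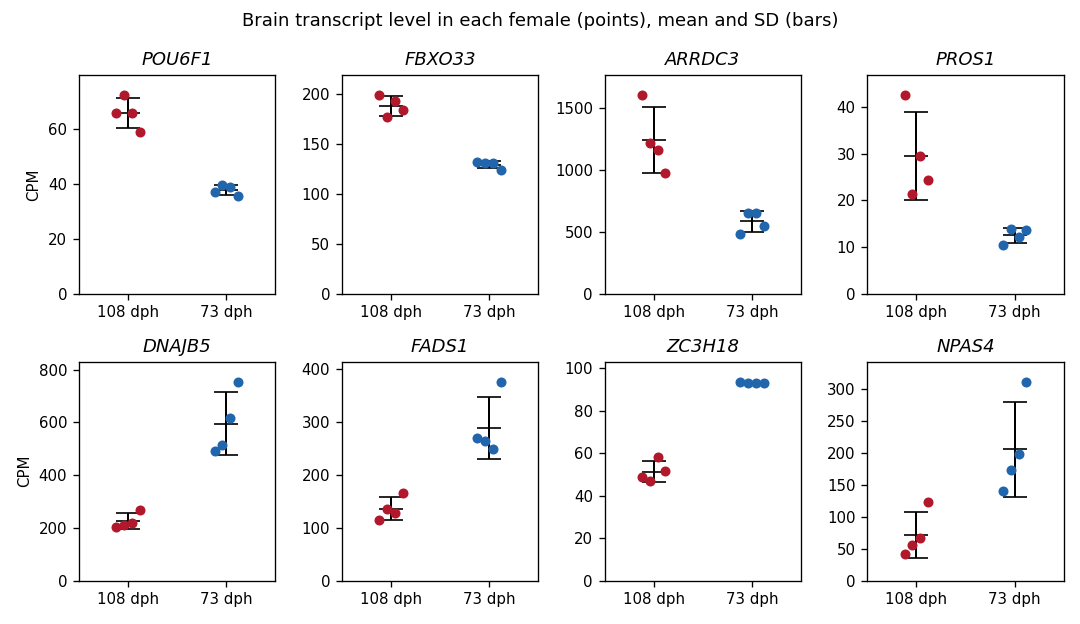
Level in CPM (y axis, from 0) of 4 genes that rose and 4 that fell, in each 108 dph female (red) and each 73 dph female (blue). Points are single brains and bars the mean and SD of 4 brains. The groups do not overlap in any of the 8 genes, and replicate 4, drawn rightmost in each group, is the highest 73 dph brain for DNAJB5, FADS1 and NPAS4.

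Among the falls, the chaperone DNAJB5 and the desaturase FADS1 stood out by size and by p. DNAJB5, a co-chaperone of the HSP40 family, had 204, 211, 219 and 269 CPM at 108 dph, against 492, 514, 618 and 755 CPM at 73 dph. Its log2 fold change was -1.40 (SE 0.14, edgeR adjusted p = 0.00163), a 2.63-fold lower level. FADS1, a fatty acid desaturase by its human name, had 115, 135, 127 and 166 CPM at 108 dph and 268, 263, 248 and 376 CPM at 73 dph, and fell by 1.09 (SE 0.14, edgeR adjusted p = 0.0119). A locus with the human name ZC3H18 and the fish symbol PPP1R10 had 49.0, 46.7, 58.0 and 51.7 CPM at 108 dph and 93.9, 92.9, 93.1 and 93.1 CPM at 73 dph. It fell by 0.86 (SE 0.08, edgeR adjusted p = 0.00105), with almost no spread among the 73 dph brains. These 3 falls and the rises of POU6F1 and FBXO33 were the 5 genes called with any fish left out. The unnamed Nfu_g_1_006313 and Nfu_g_1_015070 followed by p. Nfu_g_1_006313 had 17.4 ± 0.848 CPM at 108 dph and 26.1 ± 1.79 CPM at 73 dph, and Nfu_g_1_015070 had 29.2 ± 2.26 CPM at 108 dph and 49.4 ± 3.89 CPM at 73 dph (SD, n = 4 each).

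Gene lists hold named genes only, and the names come from tables of the study's own analyses, which included these brains. An excess of calls over all genes is thus partly built into every list. Of the 7339 named genes tested, edgeR called 37 higher and 59 lower at 108 dph, and DESeq2 called 261 and 293. At an unadjusted p below 0.05, 756 were higher and 808 lower. Over all 18824 genes DESeq2 called 440 higher and 474 lower. Chaperones help proteins fold and are raised by heat and misfolded protein. Of the 56 members tested, 0 rose and 5 fell at 108 dph, while 0.42% of all genes fell. At an unadjusted p below 0.05, 5 were higher and 10 lower, and DESeq2 called 2 higher and 7 lower. The 5 falls were DNAJB5, DNAJA4, HSPA4L and both loci named HSPA5. DNAJA4, another HSP40 co-chaperone, had 38.5, 32.8, 35.1 and 37.0 CPM at 108 dph and 85.9, 53.9, 60.5 and 84.6 CPM at 73 dph (log2 fold change -0.99, SE 0.17, edgeR adjusted p = 0.0261). HSPA5 encodes the HSP70 chaperone of the endoplasmic reticulum. Its more abundant locus had 29.9, 35.6, 26.2 and 38.2 CPM at 108 dph and 63.8, 58.3, 51.4 and 75.3 CPM at 73 dph (log2 fold change -0.94, SE 0.14, edgeR adjusted p = 0.0169). Its other locus, which may share reads with the first, fell by 0.96. HSPA4L, a nucleotide exchange factor of the HSP110 type named after its value was seen, fell by 0.39. The fall was limited to some members, since the median log2 fold change of the group was -0.04, beside 0.0032 over all genes tested, and 51 members were not called. Without 73 dph replicate 4, 1 member was called in place of 5, without 108 dph replicate 3 it was 2, and without 108 dph replicate 2 or 73 dph replicate 1 it was 3.

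Immediate early genes are transcribed within minutes of neuronal activity or stress. Of 23 members tested, 4 fell (NPAS4, JUND, JUN and EGR4) and 0 rose, beside 0.42% and 0.292% of all genes. The median log2 fold change was -0.48, beside 0.0032 over all genes tested. At an unadjusted p below 0.05, 10 were lower and 1 higher, and DESeq2 called 6 lower and 0 higher. NPAS4, an activity-dependent transcription factor of neurons, showed the largest fall among called genes. It had 41.8, 55.9, 66.1 and 123 CPM at 108 dph, against 140.4, 173, 198 and 312 CPM at 73 dph (log2 fold change -1.52, SE 0.31, edgeR adjusted p = 0.0488). The AP-1 subunit JUND had 33.3, 40.0, 34.1 and 47.4 CPM at 108 dph and 62.3, 68.3, 61.6 and 90.1 CPM at 73 dph, and fell by 0.87 (SE 0.16). JUN, the other AP-1 subunit called, had 31.1 ± 2.68 CPM at 108 dph and 50.3 ± 3.28 CPM at 73 dph. EGR4, a zinc finger factor, had 69.7 ± 6.90 CPM at 108 dph and 122 ± 23.5 CPM at 73 dph (SD, n = 4 each). EGR1 and FOS, picked out after their values were seen, had log2 fold changes of -0.86 and -0.79 and were not called (edgeR adjusted p = 0.0736 and 0.206). Replicate 4 was the highest 73 dph brain for NPAS4, JUND, JUN and EGR4, and without it the median of the group was -0.23 and 0 members were called. The number called was also 0 without 108 dph replicates 1, 2 or 3 or 73 dph replicates 2 or 3, with medians of -0.50 to -0.42.

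Mitotic transcripts mark dividing cells, which in the adult fish brain are mainly progenitors of the ventricular zones. Of 56 mitosis and cytokinesis genes, 3 fell and 0 rose. Among all genes 0.42% fell and 0.292% rose, and among the 7339 named genes 59 fell and 37 rose. The median log2 fold change of the 56 was -0.38, and 43 of the 56 were below 0, beside 49.4% of all genes. CDK1, the kinase that drives entry into mitosis, had 5.88, 7.51, 7.20 and 9.51 CPM at 108 dph and 17.8, 10.9, 13.0 and 15.95 CPM at 73 dph, and fell by 0.94 (SE 0.17, edgeR adjusted p = 0.0302). PLK1, a kinase of spindle assembly, had 6.12, 7.79, 7.06 and 8.97 CPM at 108 dph and 15.9, 11.3, 13.2 and 14.7 CPM at 73 dph, and fell by 0.88 (SE 0.17, edgeR adjusted p = 0.0412). CENPF, a kinetochore protein, fell by 0.80. MASTL, a mitotic gene that is not in this list and which keeps the mitotic state by inhibiting a phosphatase, fell by 0.90. At an unadjusted p below 0.05, 27 of the 56 were lower and 4 higher. Of all genes 8.03% were lower and 8.13% higher, and of the 7339 named genes 808 and 756. DESeq2 called 18 of the 56 lower and 1 higher. In 5 of the 8 fits that left out 1 fish, namely 108 dph replicates 1, 2 and 3 and 73 dph replicates 1 and 4, 0 mitosis genes were called. Without 108 dph replicate 4 it was 7, and without 73 dph replicate 2 or 3 it was 1. The 52 genes of DNA replication and repair had a median of -0.04, and 0 were called by edgeR (6 higher and 8 lower at an unadjusted p below 0.05, 4 and 3 by DESeq2).

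Genes of neural progenitors and newborn neurons mark the cells that divide and the neurons they form. Of 51 tested, 4 fell (SOX4, SOX11, MARCKSL1 and FABP7) and ID3 rose, beside 0.42% and 0.292% of all genes. In 41 of the 51 the log2 fold change was below 0, beside 49.4% of all genes, and the median was -0.15. At an unadjusted p below 0.05, 18 were lower and 1 higher, and DESeq2 called 7 lower and 1 higher. SOX4 and SOX11 are transcription factors of newly formed neurons. SOX4 (SOX4B) had 16.1, 12.01, 12.8 and 12.4 CPM at 108 dph and 22.5, 19.8, 21.1 and 24.5 CPM at 73 dph, and fell by 0.72 (SE 0.12, edgeR adjusted p = 0.0223). SOX11 (SOX11A) had 29.9, 26.9, 28.8 and 32.3 CPM at 108 dph and 41.04, 43.1, 50.2 and 46.0 CPM at 73 dph, and fell by 0.61 (SE 0.12, edgeR adjusted p = 0.0432). MARCKSL1, an actin regulator of growing neurites, differed little but evenly, with 457 ± 9.61 CPM at 108 dph and 547 ± 7.99 CPM at 73 dph (SD, n = 4 each; log2 fold change -0.26). FABP7 is the brain fatty acid-binding protein of radial glia, although the fish symbol of the called locus is SMPDL3A. It had 678, 873, 709 and 1204 CPM at 108 dph and 1560.1, 1514, 1280.5 and 1647 CPM at 73 dph (log2 fold change -0.79, SE 0.16, edgeR adjusted p = 0.0443). The other FABP7 locus had a log2 fold change of -0.46 and was not called (edgeR adjusted p = 0.151). ID3, an inhibitor of differentiation factors, had 69.9, 99.9, 105 and 133 CPM at 108 dph and 62.3, 57.4, 60.7 and 63.4 CPM at 73 dph (log2 fold change 0.74, SE 0.14, edgeR adjusted p = 0.0387). In whole brain, fewer cells of a type and less RNA per cell cannot be told apart. Of the 19 radial glia and astroglia genes FABP7 was the only one called (median -0.05). Without 108 dph replicate 2 or 3 or 73 dph replicate 1 or 4, 0 progenitor and newborn neuron genes were called.

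**Figure D3:**
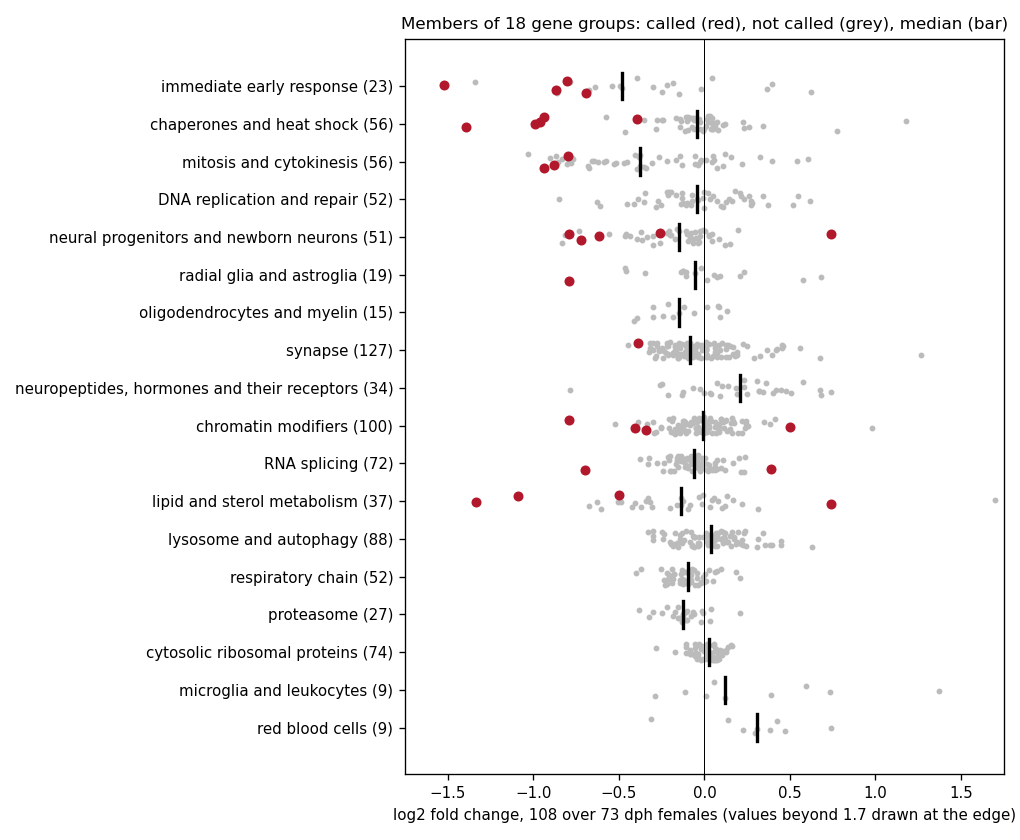
Log2 fold change of 108 over 73 dph females (x axis) for the members of 18 gene groups (rows, number tested in brackets). Red points are called genes, grey points genes not called, and black bars medians, with values beyond the axis drawn at its edge. The immediate early (-0.48) and mitosis (-0.38) medians lie farthest below 0, while in the chaperone group 5 members lie apart from a median of -0.04.

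Of 100 chromatin modifiers tested, 3 fell and 1 rose, beside 0.42% and 0.292% of all genes, and the median log2 fold change was -0.01. With 1 fish left out 0 to 2 were called, and 0 without 108 dph replicate 2 or 3 or 73 dph replicate 4. JARID2, a partner of Polycomb repressive complex 2, had 550.4, 557, 624 and 573 CPM at 108 dph and 788, 1165, 936 and 1096 CPM at 73 dph (log2 fold change -0.79, SE 0.13, edgeR adjusted p = 0.0219). CBX1, a heterochromatin protein, and KMT2C, a histone H3 methyltransferase, fell by 0.41 and 0.34. In RNA splicing (72 tested), 1 gene rose and 1 fell, beside 0.292% and 0.42% of all genes. Of the 7339 named genes 37 rose and 59 fell. The splicing factor SRSF6 rose by 0.39 (105 ± 5.58 CPM at 108 dph and 80.1 ± 4.01 CPM at 73 dph, SD, n = 4 each). CLK1, a kinase of splicing factors (fish symbol CLK4A), had 418, 422, 609.8 and 549 CPM at 108 dph and 789, 869, 687 and 896 CPM at 73 dph and fell by 0.70 (SE 0.12, edgeR adjusted p = 0.0279). Other genes of RNA handling, picked out after their values were seen, were ZC3H4, WDR33, CPSF6, DDX42 and KHDRBS1, which fell by 0.55, 0.37, 0.38, 0.32 and 0.23, and RBM12 and DDX21, which rose by 0.49 and 0.31.

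In lipid and sterol metabolism (37 tested), ABCA1 rose and FADS1, ACSL3 and PPARA fell, where 0.292% of all genes rose and 0.42% fell. The number called in the group was 1 without 108 dph replicate 3 or 73 dph replicate 1, 2 or 4, and 2 without 108 dph replicate 1 or 2. Without the 3 prolactin-rich females of 73 and 108 dph the count was 0. ACSL3 activates long-chain fatty acids. Its level was 2.79, 6.03, 4.36 and 3.87 CPM at 108 dph, against 13.3, 11.5, 7.79 and 10.5 CPM at 73 dph (log2 fold change -1.33, SE 0.24, edgeR adjusted p = 0.0302). PPARA, a nuclear receptor for fatty acids, had 90.1 ± 5.74 CPM at 108 dph and 127 ± 12.4 CPM at 73 dph (SD, n = 4 each; log2 fold change -0.50). Of 127 synapse genes 1 was called by edgeR, where 0.712% of all genes and 96 of the 7339 named genes were. DESeq2 called 12 synapse genes (5 higher, 7 lower), where it called 261 of the named genes higher and 293 lower. With 1 fish left out edgeR called 4 without 108 dph replicate 1 and 0 in the other 7 fits. The gene called was GABRB2, a subunit of the GABA type A receptor, with 51.9 ± 3.48 CPM at 108 dph and 67.9 ± 4.52 CPM at 73 dph (SD, n = 4 each; log2 fold change -0.39). Its other locus had a log2 fold change of -0.31 (edgeR adjusted p = 0.0574). Of 95 axon guidance and adhesion genes 1 fell, beside 0.42% of all genes and 59 of the 7339 named genes. It was PCDH18, a protocadherin, which fell by 0.34. Of 46 voltage-gated ion channel genes KCNQ5 was the 1 called by edgeR, again beside 0.712% of all genes and 96 of the 7339 named genes. With 1 fish left out, PCDH18 was called in none of the 8 fits and the channel group held a call only without 108 dph replicate 1.

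Several groups had 0 members called by edgeR. Their other counts stand beside 8.13% of all genes higher and 8.03% lower at an unadjusted p below 0.05. Of the 7339 named genes these were 756 and 808. DESeq2 called 440 higher and 474 lower of all 18824 genes, and 261 and 293 of the named genes. The respiratory chain (52 tested) had a median log2 fold change of -0.10, with 16 members lower and 2 higher at an unadjusted p below 0.05 and 8 lower by DESeq2. Its 2 smallest p belonged to COX7B2, a cytochrome c oxidase subunit, and ATP5I, an ATP synthase subunit (log2 fold changes -0.25 and -0.40, edgeR adjusted p = 0.0733 and 0.0755). The proteasome (27) had a median of -0.12, with 8 lower and 1 higher at an unadjusted p below 0.05 and 3 lower by DESeq2, led by PSMA6 (-0.30) and PSMG2 (-0.38). Lysosome and autophagy genes (88) had a median of 0.04, with 14 higher and 7 lower at an unadjusted p below 0.05 and 3 in each direction by DESeq2. ARSA, a lysosomal sulfatase, and LAMP1, a lysosomal membrane protein, led these (0.40 and 0.30, edgeR adjusted p = 0.0585 and 0.0744). PQLC2 and EPG5, lysosome and autophagy genes called higher, are not in this list. Cytosolic ribosomal proteins (74) had a median of 0.03, with 1 lower at an unadjusted p below 0.05, and mitochondrial ribosomal proteins (33) one of -0.08, with 5 lower, led by MRPL34 (-0.22). DESeq2 called 0 of either, and without 108 dph replicate 4 the cytosolic median was -0.03.

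Neuropeptides, hormones and their receptors (34) had a median of 0.21, and 6 members were higher at an unadjusted p below 0.05 and 2 by DESeq2. ESR1, an oestrogen receptor, had 17.2, 13.0, 12.7 and 11.1 CPM at 108 dph and 8.25, 9.62, 8.49 and 7.501 CPM at 73 dph, groups that did not overlap, but was not called (log2 fold change 0.67, edgeR adjusted p = 0.0699). INSR, the insulin receptor, had a log2 fold change of 0.32 (edgeR adjusted p = 0.0665). Prolactin belonged to this group too, and leaving out the 3 females of 73 and 108 dph rich in it gave a median of 0.15. In males of the same ages the median of this neuropeptide and hormone group was -0.099, and a sex difference of the group was not tested. Red blood cell genes (9) had a median of 0.31, with 3 higher at an unadjusted p below 0.05 and by DESeq2. SLC4A1, the anion exchanger of red cells, had 157, 165, 178 and 148 CPM at 108 dph and 141, 118, 133 and 104 CPM at 73 dph (log2 fold change 0.38, edgeR adjusted p = 0.0733), and TSPO2 had a log2 fold change of 0.47. Blood content was not tested for its part in the other results. Microglia and leukocyte genes (9, median 0.12), interferon genes (20, 0.16) and complement and inflammation genes (10, 0.10) each had 2 members higher and 0 lower at an unadjusted p below 0.05, and DESeq2 called 1 of these 39. Single fish moved their medians, to 0.02 to 0.25 for microglia and leukocytes, -0.03 to 0.28 for interferon genes, which turned below 0 without 73 dph replicate 4, and 0.03 to 0.29 for complement. Oligodendrocyte and myelin genes (15) had a median of -0.15, with OLIG1 at -0.39 and 3 members lower at an unadjusted p below 0.05. Its median was -0.03 without 73 dph replicate 2 and -0.05 without 108 dph replicate 1. Circadian clock genes (30, median -0.06, led by CSNK1D and NR1D2), monoamine and cholinergic genes (17, -0.04, led by MAOA and HTR1B), endothelium (10, -0.08), skeletal muscle (6, -0.13) and meninges (19, -0.20) had no member called either. At an unadjusted p below 0.05 they held 1 higher and 4 lower, 1 and 4, 0 and 0, 0 and 0, and 1 and 1, and DESeq2 called 4, 1, 0, 0 and 1 of them. The meninges median was 0.0094 without 108 dph replicate 1, and the monoamine median was 0.03 and 0.0011 without 73 dph replicates 3 and 4.

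Genes that the study discusses were followed as values. The study named them for sex, for wild against captive fish or for age effects not limited to this step and sex. In the contrast of 108 and 73 dph females 0 were called by edgeR, while DESeq2 called 3. XRCC2, of homologous recombination, had 13.5 ± 1.05 CPM at 108 dph and 9.22 ± 0.531 CPM at 73 dph (SD, n = 4 each), a log2 fold change of 0.55 (edgeR adjusted p = 0.0689). DNA2, a nuclease of replication, had a log2 fold change of 0.52 (edgeR adjusted p = 0.0961), and FTL, the ferritin light chain, one of 0.38 (edgeR adjusted p = 0.0689). PRIM1, ANLN, KIF11, SYBU and CSMD3 had log2 fold changes of 0.18, -0.78, -0.53, -0.16 and 0.30. CYP19A1, the aromatase that makes oestrogen in radial glia of fish, had 301, 284, 274 and 123 CPM at 108 dph and 140.2, 188, 122 and 208 CPM at 73 dph, with overlapping groups (log2 fold change 0.58, SE 0.26, edgeR adjusted p = 0.293). At an unadjusted p below 0.05 were XRCC2, FTL, DNA2, ANLN and this CYP19A1 locus.

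Males of the same ages showed differences of the same direction in most of these genes. Of the 134 genes called in females 133 were tested in the 8 males, and 129 (97%) had the same direction there, beside 65.9% of the 18565 genes tested in both sexes. This counts signs only. With the same direction and an unadjusted edgeR p below 0.05 in males there were 84. MARCKSL1 and PPARA had male log2 fold changes near 0 (-0.02 and -0.03). In males 60 genes were called (0.32% of 18771), and 12 of them were called in females as well. Without 1 male fish the male count was 0 to 104, and it was 0 without 108 dph replicate 2 or 73 dph replicate 3 or 4, 3 and 4 without 73 dph replicates 2 and 1, and 34 without 108 dph replicate 3, with 104 without 108 dph replicate 4. These 12 included ZC3H18, FBXO33, ARRDC3, HSPA5, EPG5, SOX4, SOX11 and ABCA1. The median absolute log2 fold change of the 133 genes was 0.59 in females and 0.39 in males, and since the genes were chosen by their female values, a larger female median is part of that choice. DNAJB5 fell by 1.40 in females, and its log2 fold change in males was -0.69 (SE 0.26, edgeR adjusted p = 0.247, 331 ± 147 CPM at 108 dph and 536 ± 108 CPM at 73 dph, SD, n = 4 each). CFAP43, DIXDC1, ETV5 and PDXK were the 4 genes with the opposite sign in males. CFAP43, which rose by 0.99 in females, had 7.03 ± 1.59 CPM in 108 dph males and 7.22 ± 2.48 CPM in 73 dph males (SD, n = 4 each). The difference between the sexes was itself tested in a fit of all 24 fish. It did not pass for any of these 4 (edgeR adjusted p = 0.785 for CFAP43).

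That test of female minus male change called 1 of 19358 genes (0.00517%), while 983 (5.08%) had an unadjusted p below 0.05. Without 108 dph female replicate 2 or 4 or male replicate 4 of either age the number was 0, and without 108 dph male replicate 2 it was 2. The gene was DNAJC17, a J-domain protein of the nucleus. In females it had 49.1, 46.6, 49.5 and 42.3 CPM at 108 dph and 49.99, 47.5, 54.1 and 61.6 CPM at 73 dph, a log2 fold change of -0.19 (SE 0.09, edgeR adjusted p = 0.358). In males it had 75.2 ± 10.6 CPM at 108 dph and 39.9 ± 4.46 CPM at 73 dph (SD, n = 4 each), a log2 fold change of 0.91 (SE 0.12, edgeR adjusted p = 0.0221). The difference was -1.09 (SE 0.16, edgeR adjusted p = 0.0135).

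**Figure D4:**
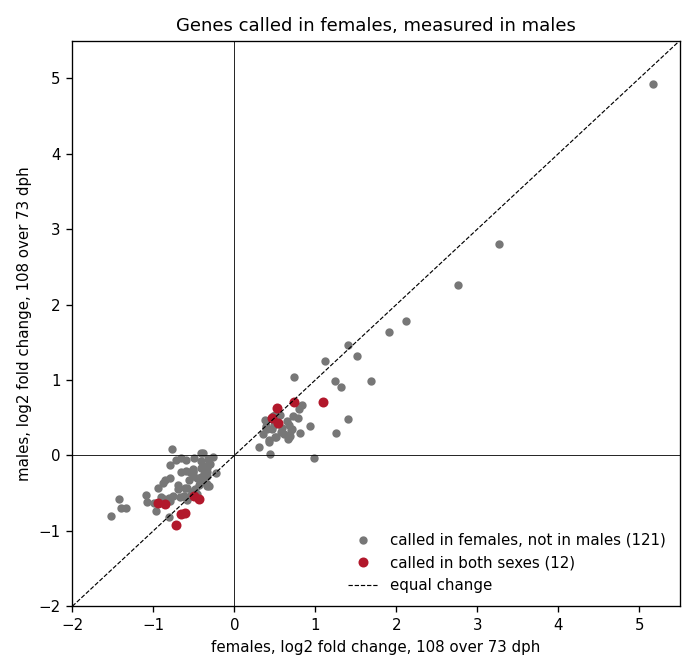
Log2 fold change of 108 over 73 dph in females (x axis) and in males (y axis) for the 133 genes called in females and tested in males. Red points are the 12 genes called in both sexes, grey points the 121 not called in males, and the dashed line marks equal change. Most points lie on the same side of 0 in both sexes, and 4 do not.

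The 39 dph females place the late step within a longer course. The steps share the 73 dph brains, so that their values are given side by side. Between 39 and 73 dph 1332 genes were called (7.08%), 698 higher (3.71%) and 634 lower (3.37%) at 73 dph. Of the 134 genes of the later step, 46 were also called in the earlier step with the same direction, 5 with the opposite direction, and 83 were not called in it. ARRDC3 went on rising, with 303 ± 22.3, 585 ± 84.8 and 1244 ± 265 CPM at 39, 73 and 108 dph (SD, n = 4 each), and ID3 had 35.2 ± 1.41, 60.9 ± 2.64 and 102 ± 26.0 CPM. SOX4 went on falling, with 34.6 ± 3.93, 21.97 ± 1.997 and 13.3 ± 1.86 CPM at 39, 73 and 108 dph, as did DNAJA4, with 144 ± 31.2, 71.2 ± 16.4 and 35.9 ± 2.48 CPM. FADS1 had 273 ± 23.5, 289 ± 58.6 and 136 ± 21.7 CPM at 39, 73 and 108 dph. Its later step minus its earlier one was -1.16 (SE 0.23, edgeR adjusted p = 0.100) and was not called. CDK1 had 12.9 ± 0.613, 14.4 ± 3.08 and 7.52 ± 1.499 CPM at the 3 ages. The later step minus the earlier one was tested in the 12 females, and 19 genes were called (0.101%), 5 with a positive (0.0266%) and 14 with a negative difference (0.0744%), of which 5 were also called in the later step. At an unadjusted p below 0.05 there were 1930 genes (10.3%). The number called was 4 without 73 dph replicate 3 or 4, and 6, 7, 9 and 11 without 108 dph replicate 2, 73 dph replicate 2, 108 dph replicate 3 and 73 dph replicate 1. The genes called in both were JARID2, FBXO33, KHDRBS1, DDX21 and the locus named TRMT2B (fish symbol SCD). JARID2 had 208 ± 32.4, 996 ± 169 and 576 ± 33.5 CPM at 39, 73 and 108 dph, a difference of steps of -3.06 (SE 0.21, edgeR adjusted p = 3.28e-05). FBXO33 had 136 ± 3.79, 129 ± 3.78 and 188 ± 10.1 CPM, a difference of steps of 0.62 (SE 0.10, edgeR adjusted p = 0.0416).

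**Figure D5:**
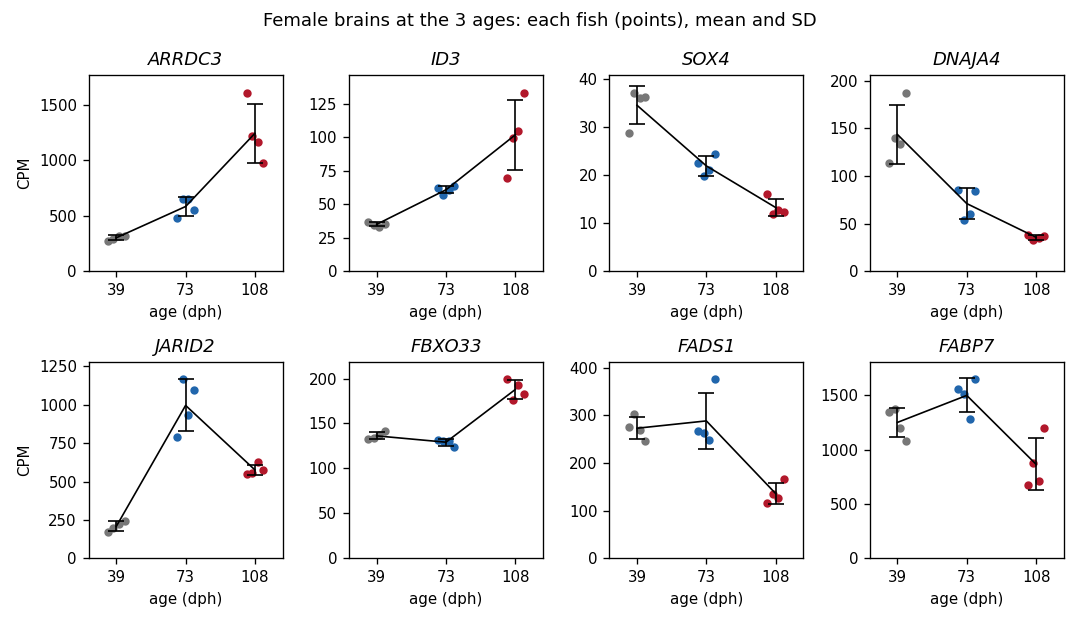
Level in CPM (y axis, from 0) of 8 genes in each female of 39, 73 and 108 dph (x axis). Points are single brains, lines join the means and bars give the SD of 4 brains. ARRDC3 and ID3 climb and SOX4 and DNAJA4 decline over both steps, JARID2 peaks at 73 dph, and FBXO33, FADS1 and FABP7 differ mainly at 108 dph. The difference of steps was not called for FADS1 or FABP7.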

How the data were processed

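Brain RNA of 24 wild-caught fish was sequenced by the authors as stranded poly(A) libraries with short single-end reads, demultiplexed with bcl2fastq 1.8.4, aligned with TopHat2 2.1.0 to the hard-masked genome Nfu_20150522 and counted per gene and strand with featureCounts 1.5.0, per the methods and the submitters' processing notes. The deposited counts are raw read counts per gene. The deposited RPKM values, computed by the authors from these counts, served here only to recover gene lengths, and the deposited RPM table was not used. Total counts per library are given with the results.

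Groups came from the age and sex labels. Nothing in the labels says more of the replicates than that they are separate samples, so p-values measure the spread between these samples. Each of the 28 pairs among the 8 females of 73 and 108 dph differed far beyond counting noise, and other pairs were not compared. Counts were fitted in R 4.3.3 with edgeR 4.0.16 (quasi-likelihood test, TMM scaling, filterByExpr with a minimum count of 10) on the 12 females with a mean per age, the contrast of 108 minus 73 dph, and Benjamini-Hochberg adjustment over all genes tested, with a threshold of 0.05. Males were fitted likewise, the sex difference on all 24 fish, and the difference of steps on the 12 females. DESeq2 1.42.0, other scalings, filters and sample sets, and each fish left out in turn were alternatives. The code was tested on simulated counts.

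Gene names are human homologue names and fish symbols paired with the gene IDs in the study's supplementary tables, where 7339 of the 18824 genes tested (39%) and 96 of the 134 called genes had one. Those tables list genes of the study's own analyses, so named genes are not a random sample. A name was more frequent among called genes (71.6%) than among genes tested (39%), which raises the counts of called genes in the lists. Coordinates and sequences were not analysed here. Genes named in the text are the 12 largest rises and 12 largest falls among called, named genes with a mean of at least 1 on the log2 CPM scale; the 5 smallest p in each direction; per gene list up to 4 called members or else the 2 smallest p; genes discussed by the study; the smallest p of the sex difference; and genes called with any fish left out. Members and the 30 gene lists, of which 1 (retina) had no named member, were chosen with earlier results of these data known. Some genes that the rule names are not reported here. Lists are described by counts and medians, with no test of a list.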

Additional observations from a re-analysis of the deposited data

Results flagged for a closer look

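Within groups of 4, Dixon's test at the 95% level was applied to the named called genes, to prolactin and to the group medians in each fish, 148 groups in all. In 8 of these a fish lay far from the other 3, and chance alone marks about 1 group in 20. In the 73 dph females, XPO1 was high in replicate 1 (42.6 CPM), CHGB in replicate 2 (287 CPM) and FADS1 in replicate 4 (376 CPM), while FBXO33 was low in replicate 4 (124 CPM). ZC3H18 was marked at 93.9 CPM in 73 dph replicate 1, although the 4 brains spanned less than 1 CPM. Prolactin (human name GH1) stood far above the rest in 108 dph replicate 2 (4142 CPM). The median of the cytosolic ribosomal proteins was high in 73 dph replicate 2 (0.0657 above the mean of the 8 brains on the log2 scale), and that of monoamine and cholinergic genes in 108 dph replicate 2 (0.0773). The cause of these values was not tested. DNAJC17 differed in its 108 over 73 dph change between females and males, by -1.09 on the log2 scale in the test of the difference.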

How the results depend on the processing

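The number of genes called in 108 against 73 dph females, 134 with edgeR, was 914 with DESeq2, 27 with only the 8 females of these ages, 253 with all 24 fish, 4 at an adjusted p below 0.01, and 6 to 112 with 1 fish left out. It was 2 (1 of them among the 134) without the 3 prolactin-rich females of 73 and 108 dph, an alternative with fewer fish, chosen after seeing the data. Size factors, upper quartile scaling, robust shrinkage, other filters, a length correction and leaving out the shallow 39 dph library gave 119 to 150. In males, 60 genes became 513 with DESeq2, 323 with all 24 fish and 0 to 104 with 1 fish left out. The sex difference, 1 gene, became 4 with DESeq2 and 0 to 2 with 1 fish left out, and the difference of steps, 19 genes, became 255 with DESeq2 and 4 to 16. Of 855 combinations of 45 named called genes and settings, 559 kept the call and 296 lost it. Changes of sign numbered 0, which groups without overlap nearly fix in advance. The causes of the changed counts were not tested. Of the 134 calls, 5 were kept in all 8 fits that left out 1 fish, 37 in at least 4 of them and 19 in none. Each group had 4 fish, and low transcripts rest on few reads.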
